A study of Homo sapiens with 2 samples.

Results

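The DEAD and DEAH box RNA helicases are a family of ATP-driven enzymes that separate RNA strands and strip proteins from RNA, and they were read here in a gastric cancer cell line labelled as overexpressing the transcription factor SOX2 and in its control. Members were taken by symbol, as genes whose array annotation is DDX or DHX followed by a number and at most 1 letter, leaving out the Y-linked member. This gave 50 genes, 34 DDX and 16 DHX, of the 19775 genes with a probe set of their own, read by 117 probe sets. A probe set is a group of short probes that binds 1 stretch of a transcript. The Sox2-labelled array held RNA of MKN28 cells infected with a lentivirus that carries Sox2 and puromycin resistance, and kept under puromycin. The control-labelled array held RNA of MKN28 cells for which the labels name neither a virus nor a selection. MKN28 is an established human gastric adenocarcinoma line, listed as a misidentified derivative of the gastric line MKN74, and the labels give neither the promoter behind Sox2 nor any clone.

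DEAD box proteins bind the RNA backbone and pry apart short stretches locally, while most DEAH box proteins pull themselves along a single strand and disrupt what lies ahead. Both carry the ATP-binding motif that names them, and many work only when a partner protein switches them on. In growing cells they act at each stage of an RNA's life: ribosome assembly in the nucleolus, splicing, export, translation and decay.

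Each condition had 1 array and no replicate, so no test between the conditions is possible and no difference below has a replicate error. The 2 arrays, of 54675 probe sets each, had a median intensity of 34.25 in the Sox2-labelled array and 34.26 in the control-labelled array, on the deposited linear scale. SOX2 itself read 172 in the Sox2-labelled array and 123 in the control-labelled array by its brightest probe set, a log2 difference of 0.49, and its other probe sets differed by -0.023, 0.31 and -0.46. The target gene therefore does not settle the labels, and every direction here rests on them. Of the epithelial markers, KRT8, KRT18, KRT19 and CDH1 were past the filter used below and EPCAM was not, at 4.96 and 6.32. In the Sox2-labelled and control-labelled arrays, KRT8 read 50.25 and 44.6, KRT18 70.1 and 88.5, KRT19 40.6 and 37.7, and CDH1 78.6 and 91.3. Of the stomach lining, CLDN18 and MUC5AC passed it and TFF1 and GKN1 did not. Of 7 mesenchymal, leukocyte and endothelial markers, 6 passed it and PTPRC did not. VIM read 5833 in the Sox2-labelled array and 4288 in the control-labelled array, and COL1A1 557 and 576. CD3E, at 81.96 and 71.4, PECAM1, at 72.4 and 76.1, CDH5 and COL1A2 passed too, so reaching the filter does not show that a gene is expressed. The markers therefore do not bear out an epithelial line, and the cells are named by the labels alone. Levels of different probe sets cannot be ranked against each other. The poly-A spike-ins, transcripts added ahead of labelling, had 24 probe sets, and each read lower in the Sox2-labelled array than in the other (median log2 difference -0.75).

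For each gene the probe set of highest mean log2 intensity was used, and the gene counted as measured when that mean reached the median of all values, an intensity of 34.25. This filter weighs both arrays alike, and DHX9 was the only helicase past it with a value below it in 1 array, the control-labelled one. Of the 50 helicases, 34 passed, 20 DDX and 14 DHX, and 13611 of all genes did. The helicase nearest to the filter on the inside was DHX9, with a mean intensity of 41.1, and the nearest on the outside DDX10, with 33.1. Differences are log2 intensities of the Sox2-labelled array minus those of the control-labelled array. The yardstick for them is technical: pairs of probe sets for the same gene, over 3245 genes, gave a robust SD of 0.26 for the difference of 1 probe set, which leaves out the variation between cultures and between arrays.

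By the brightest probe set of each gene, the helicase differences of at least 1.5-fold past the filter were all higher in the Sox2-labelled array. DDX6, DHX9 and DHX15 were at least 2-fold higher in the Sox2-labelled array, DDX50, DDX1, DHX36 and DHX35 were between 1.5-fold and 2-fold higher, and no helicase past the filter was 1.5-fold lower. Thus 3 of 34 were at least 2-fold higher, or 8.82%, beside 2.06% of all genes past the filter. At 1.5-fold the count was 7 of 34, or 20.6%, beside 6.24% of all genes. Both counts include DHX9, which passed the filter only through its higher Sox2-labelled value and so lends them no support. DHX9 did not reach a stricter filter at the 75th percentile, an intensity of 60.32. Past that one, 2 of 29 helicases were at least 2-fold higher, beside 3.09% of all genes. With no filter, 3 of 50 helicases were at least 2-fold higher, beside 1.91% of all genes, and 8 of 50 at least 1.5-fold, beside 6.56%. Past the filter, the count lower was 0 at either size, beside 0.647% of all genes at 2-fold and 3.55% at 1.5-fold. Of the 34, 22 lay above 0, or 64.7%, beside 49.4% of all genes. The median log2 difference was 0.099, against -0.0038 for all genes past the filter. Of the 34, 21 were within 1 technical SD of 0, or 61.8%, near the 64.5% of all genes. The other helicases lay mostly on the higher side: 12 were higher by more than that, beside 18.3% of all genes, and only DDX31 was lower by more, beside 17.2%. These shares describe 2 arrays, and with 34 genes each gene moves a share by several points.

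**Figure D1:**
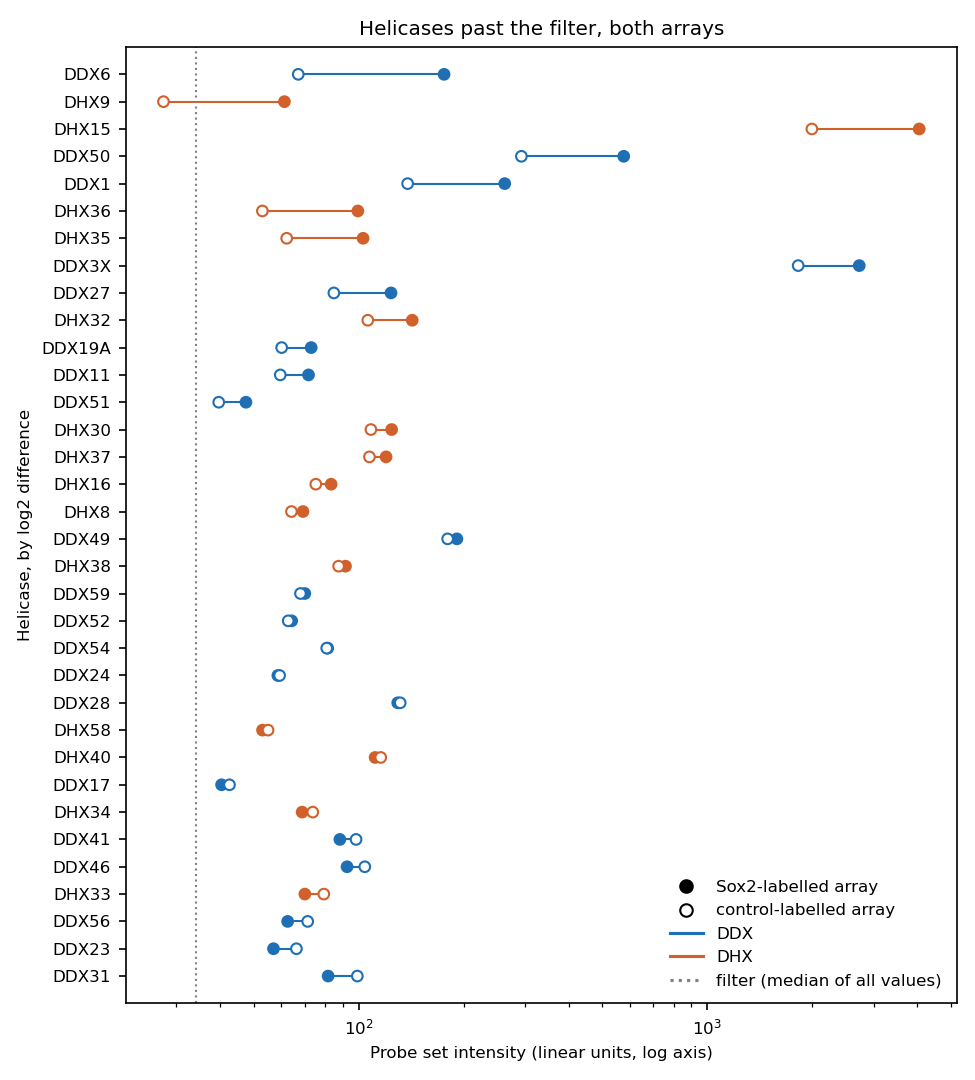
Intensities of the 34 helicases past the filter on a log axis, with filled points for the Sox2-labelled array, open points for the control-labelled array, and colour for DDX or DHX. Genes run from the highest log2 difference at the top (DDX6, 1.39) to the lowest at the bottom (DDX31, -0.28), and the long lines all have the filled point on the right.

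The helicases of translation and mRNA turnover held the largest difference. DDX6, which represses translation and promotes decapping in P-bodies, read 176 in the Sox2-labelled array and 67.1 in the control-labelled array, a log2 difference of 1.39 or 2.62-fold. This rests on 1 probe set: the second DDX6 probe set past the filter read 45.5 and 42.0, a difference of 0.11, and a dim one differed by 0.14. DHX36, which opens G-quadruplexes in RNA and DNA, read 99.5 in the Sox2-labelled array and 52.96 in the control-labelled array, 1.88-fold higher. Its remaining 3 probe sets lay below the filter and were mixed, from -0.33 to 0.84.

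DDX3X was the helicase of this group that several probe sets read as higher. It helps ribosomes start on mRNAs with structured leaders. Its brightest probe set read 2725 in the Sox2-labelled array and 1821 in the control-labelled array, a difference of 0.58 or 1.497-fold, just under the 1.5-fold line. The next probe sets read 1982 against 1263, 1776 against 1009 and 368 against 166, with differences of 0.65, 0.82 and 1.15. All 4 DDX3X probe sets past the filter were therefore higher in the Sox2-labelled array, while 2 dim ones differed by -0.17 and -0.35. The brightest was higher by 2.21 technical SD, but that yardstick was taken over all levels, and genes as bright as DDX3X scattered more (below). DDX3X has a close copy on the Y chromosome, and its probe sets may bind both transcripts. DHX34, a factor of nonsense-mediated decay, read 68.9 and 73.9, a difference of -0.10, and DHX29, which aids ribosome scanning, was dim at 20.4 and 16.9. Of the 4 members of this group past the filter, 1 reached 2-fold higher (25%, beside 2.06% of all genes) and none 2-fold lower, and the median was 0.75.

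Among the spliceosomal helicases, DHX15 was higher by 2-fold in both of its probe sets. DHX15 takes the spliceosome apart after splicing. It read 4049 in the Sox2-labelled array and 1993 in the control-labelled array, a log2 difference of 1.02 or 2.03-fold. Its second probe set read 3301 and 1578, a difference of 1.06, so they gave nearly the same value. DHX35, a component of catalytic spliceosomes, read 103 and 62.2, 1.66-fold higher, but a second one past the filter read 68.3 and 62.4, a difference of 0.13.

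The remaining spliceosomal helicases past the filter were within 1 technical SD of 0 by their brightest probe sets. Of those that drive successive steps of splicing, DHX16 read 83.4 in the Sox2-labelled array and 75.4 in the control-labelled array, and DHX38 91.7 and 87.6. DHX8, which releases the finished mRNA, read 69.2 and 64.2, but its second probe set past the filter differed by -0.30 and a dim one by -0.52. On the DDX side, DDX46, which helps the U2 particle onto the branch site, read 92.6 in the Sox2-labelled array and 104 in the control-labelled array. DDX23, of the U5 particle, read 57.0 and 66.3, and DDX41, a helicase of the late spliceosome, 88.3 and 98.3. These 3 DDX members lay between -0.15 and -0.22, within 1 technical SD. DDX42, which belongs with the U2 particle, was below the filter at 37.7 and 22.3, but its 3 probe sets differed alike, by 0.76, 0.63 and 0.69. Of the 8 spliceosomal members past the filter, 1 was at least 2-fold higher (12.5%, beside 2.06% of all genes) and 7 were under 2-fold, with a median of 0.088.

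Ribosome assembly was the largest group. Of its 14 members with a probe set, 11 passed the filter, and their median was 0.033. By the brightest probe sets none of the 11 was 2-fold higher or lower, beside 2.06% and 0.647% of all genes. At shares that small, a count of 0 in 11 genes is no result about the group. DDX50, a nucleolar paralog of DDX21, read 576 in the Sox2-labelled array and 293 in the control-labelled array, 1.97-fold higher. Its second probe set past the filter went the other way, at 51.4 and 72.0, a difference of -0.49. DDX21, a helicase of ribosomal RNA synthesis and processing, lay below the filter at 26.4 and 17.98, with differences of 0.55 and 0.42 by its 2 probe sets. DDX27, which helps shape the large subunit's RNA, read 124 and 84.9, a difference of 0.54, against -0.053 by its second probe set. DDX51 read 47.5 and 39.7, and DHX37, which frees the maturing small subunit from its snoRNA, 120 and 107.

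The other members of this group lay near 0 or slightly below it. DDX49 read 191 in the Sox2-labelled array and 180 in the control-labelled array, DDX52 64.2 and 62.8, DDX54 81.5 and 81.0, and DDX24 58.7 and 59.3. DHX33 read 70.1 and 79.5, DDX56 62.6 and 71.4, and DDX31, the lowest of the family past the filter, 81.8 and 99.1, a difference of -0.28 or 1.21-fold lower. Second probe sets did not always follow. For DDX52 the second probe set read 57.6 and 26.02, a difference of 1.15 where the brightest gave 0.033, and for DDX56 it read 56.0 and 32.4, or 0.79 against -0.19. For DDX31 it read 68.9 and 54.0, or 0.35 against -0.28. Others were lower: the further probe sets of DDX54 differed by -0.38 and -0.24 where the brightest gave 0.0091, and the second of DHX37 by -0.34 where the brightest gave 0.16. DDX10 and DDX55 were below the filter.

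The helicases of transcription, RNA processing and particle assembly included a further pair of differences. DHX9, which unwinds double-stranded RNA and RNA-DNA hybrids, read 61.3 in the Sox2-labelled array and 27.6 in the control-labelled array, a log2 difference of 1.15 or 2.22-fold. The value in the control lay below the filter, and the other DHX9 probe sets, at 38.5 against 34.4 and, below the filter, 29.6 against 29.05, differed by only 0.16 and 0.027. DDX1, a subunit of the tRNA ligase complex, read 262 and 138 by its only probe set, 1.90-fold higher. DDX17, a coactivator that also aids microRNA processing, read 40.45 and 42.6 by its brightest probe set. Its paralog DDX5 was below the filter at 32.5 and 27.7 by the probe set that names it alone. A probe set that names DDX5 together with 2 microRNA genes read 3760 in the Sox2-labelled array and 2590 in the control-labelled array, a difference of 0.54.

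Export, mitochondrial and antiviral helicases showed little. DDX19A, which releases mRNA at the nuclear pore, read 73.1 in the Sox2-labelled array and 60.2 in the control-labelled array by its brightest probe set. A second probe set read 40.0 and 61.1, a difference of -0.61 against 0.28. DDX19B, a near-identical paralog, lay below the filter, as did DDX39A and the testis helicase DDX25. Of the mitochondrial members, DHX30 read 124 and 108, with all 4 of its probe sets past the filter above 0 but by at most 0.20. Its 2 dim probe sets differed by -0.60 and -0.34, and the mean of all 6 was -0.069. DDX28 read 129 and 132. DHX58, also called LGP2, a regulator of viral RNA sensing, read 53.0 and 55.0. DDX60 and DDX60L, both induced by interferon, were below the filter.

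The germ cell members DDX4, DDX43 and DDX53 were all below the filter. DDX11, a DNA helicase of sister chromatid cohesion with near-identical copies in the genome, read 71.8 and 59.6, and its 3 probe sets past the filter ranged from -0.14 to 0.32. Of the less characterised members, DHX32 read 142 in the Sox2-labelled array and 106 in the control-labelled array, a difference of 0.42. DHX40 read 111 and 116, and DDX59 70.1 and 68.1, while DHX57 lay below the filter. The 16 helicases below the filter read between 5.53 and 37.7 in the Sox2-labelled array and between 7.10 and 31.7 in the control-labelled array. Their differences ran from -0.50 for DDX60 to 0.76 for DDX42. A value below the filter does not show that a transcript was absent, since no detection call could be made.

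DDX and DHX members were compared next. The DDX members had a median log2 difference of 0.037 over 20 genes and the DHX members one of 0.15 over 14, and the DDX median minus the DHX median was -0.11 (no test). At least 2-fold higher were 1 of 20 DDX members (5%) and 2 of 14 DHX members (14.3%), beside 2.06% of all genes. At 1.5-fold these were 3 of 20 (15%) and 4 of 14 (28.6%), beside 6.24%. Both DHX counts include DHX9, which passed the filter only through its higher Sox2-labelled value. It lends them no support, and no contrast between the families is drawn from these counts. The DDX differences ran from -0.28 to 1.39 and the DHX differences from -0.18 to 1.15, so the families overlapped over nearly their whole range. With no filter the medians stayed at 0.037 over 34 DDX genes and 0.15 over 16 DHX genes. The families also differed in how many passed the filter, 20 of 34 DDX against 14 of 16 DHX. Past the filter, the median genomic length was 28704.5 bases for DDX and 44896 for DHX. With a trend on genomic length removed, the gap between the medians was -0.11. When the probe sets of each gene were averaged, the gap between the medians shrank to -0.037. With 1 array a condition, the difference between the families was not tested.

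**Figure D2:**
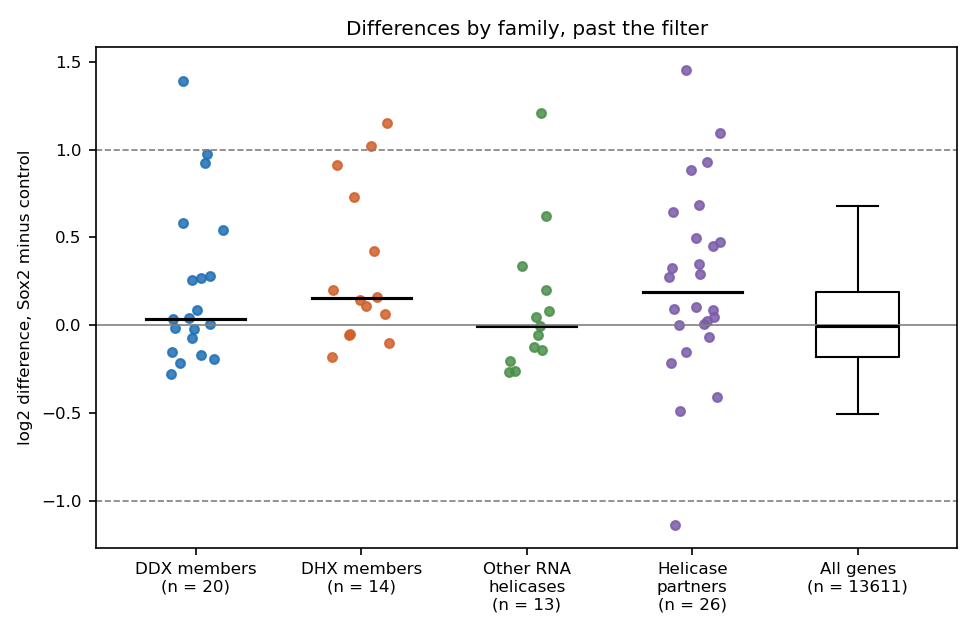
Log2 difference, Sox2-labelled array minus control-labelled array, for DDX members, DHX members, other RNA helicases, helicase partners and all genes past the filter. Points are genes, thick bars are medians (0.037 for DDX, 0.15 for DHX), the box spans the quartiles of all 13611 genes with whiskers at the outer 5%, and dashed lines mark 2-fold.

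Probe sets for the same helicase often disagreed, which limits what a single value can say. At least 2 probe sets passed the filter for 23 helicases, and for 11 of these they lay on the same side of 0, or 47.8%, beside 44% of 5032 such genes. Of the 11, DDX3X, DDX6, DDX52, DHX9, DHX15, DHX30 and DHX35 were higher in the Sox2-labelled array and DDX23, DDX24, DHX33 and DHX34 lower. The brightest DHX9 probe set and the second of DDX52 passed the filter only through the higher Sox2-labelled value. The agreement within these 2 genes therefore lends the count no support. The second-brightest probe sets gave a median of 0.11 over these 23 genes, with 12 above 0, beside 49.7% of all genes. Of these second probe sets, those of DHX15 and DDX52 were at least 2-fold higher, beside 1.69% of all genes. At 1.5-fold 4 were higher, beside 5.68%, and 1 was lower, that of DDX19A, beside 2.23%. The counts higher include DDX52 and, at 1.5-fold, DDX56, whose second probe sets read 26.02 and 32.4 in the control-labelled array. Both lay below the filter there and passed it only through the higher Sox2-labelled value, so they lend these counts no support. Of the 3 helicases called at 2-fold, only DHX15 had a second probe set past the filter that also reached 2-fold.

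**Figure D3:**
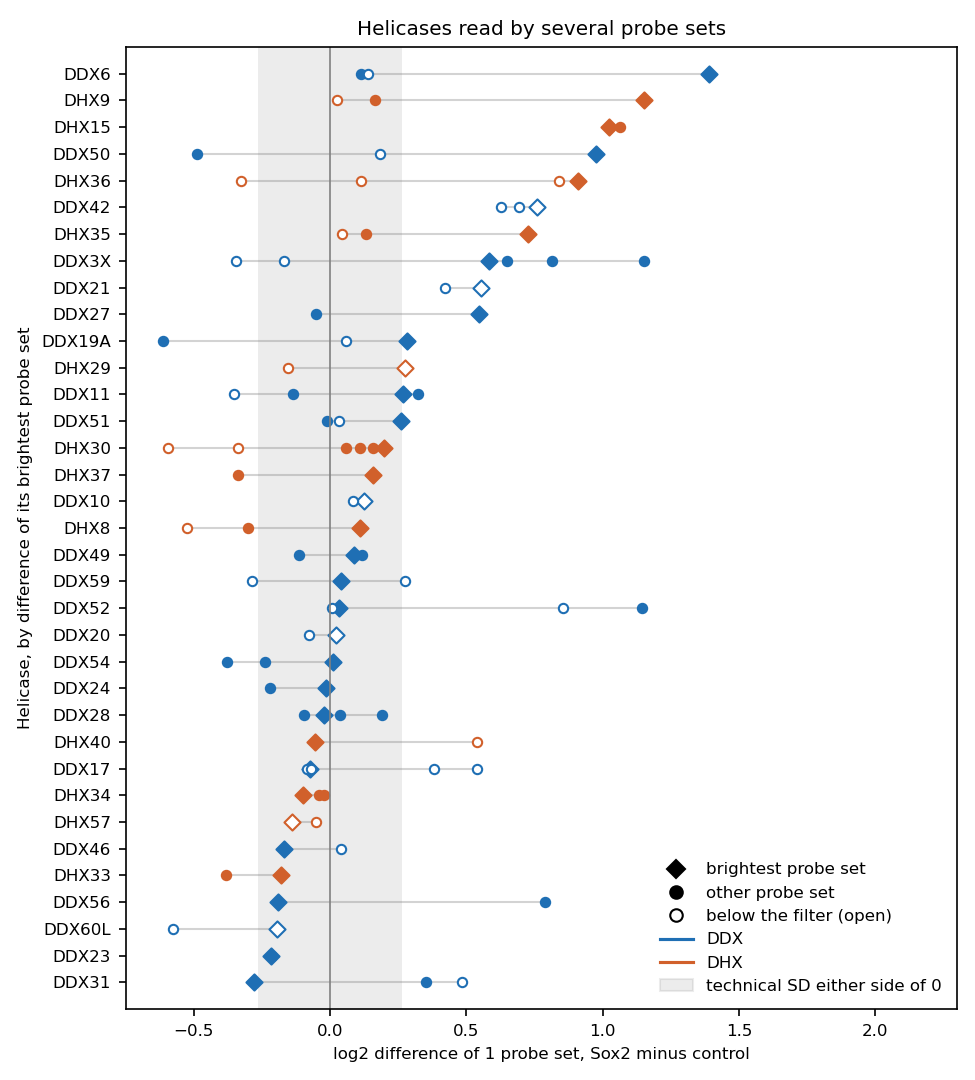
Log2 difference of every probe set for helicases with at least 2, with a diamond for the brightest probe set, open symbols below the filter, and a grey band of 1 technical SD (0.26) either side of 0. The DHX15 pair lies together near 1, and the 4 filled DDX3X points all lie right of the band, while DDX6, DHX9 and DDX50 have their brightest probe set far from the rest.

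Level and gene length moved with these differences. Bright genes scattered more: in the brightest of 20 level bins, which holds DHX15, DDX3X and DDX50, the robust SD over 681 genes was 0.68 and 12.2% of genes were at least 2-fold higher. DDX6 lay in a bin where 1.47% of genes were, and DHX9 in one with 0.588%. A 2-fold difference thus stood out less for DHX15 than for DDX6, while probe set agreement ran the other way. DHX9 passed the filter only through its higher Sox2-labelled value, so nothing is drawn from the share of its bin. The DDX3X difference of 0.58 lay within 1 robust SD of the median of its bin, 0.18, and lowess centring on level put it at 0.45. The part of level in the result was not tested. The 7 helicases at least 1.5-fold higher had a median genomic length of 48636 bases, from 39234 to 77378, against 28306 for the other 27 past the filter. All 850 genes at that size had a median of 55673, against 24335 for all genes past the filter. Over the 34 helicases, which share both arrays and are not independent replicates, the difference correlated with log10 genomic length with a Pearson r of 0.37 and a Spearman rho of 0.36, and with mean log2 level with 0.40 and 0.30. Over all genes past the filter, r was 0.17 for length and 0.13 for level. With the trend on genomic length removed, DDX6, DHX9 and DHX15 stayed at 2-fold, with differences of 1.38, 1.14 and 1.002.

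**Figure D4:**
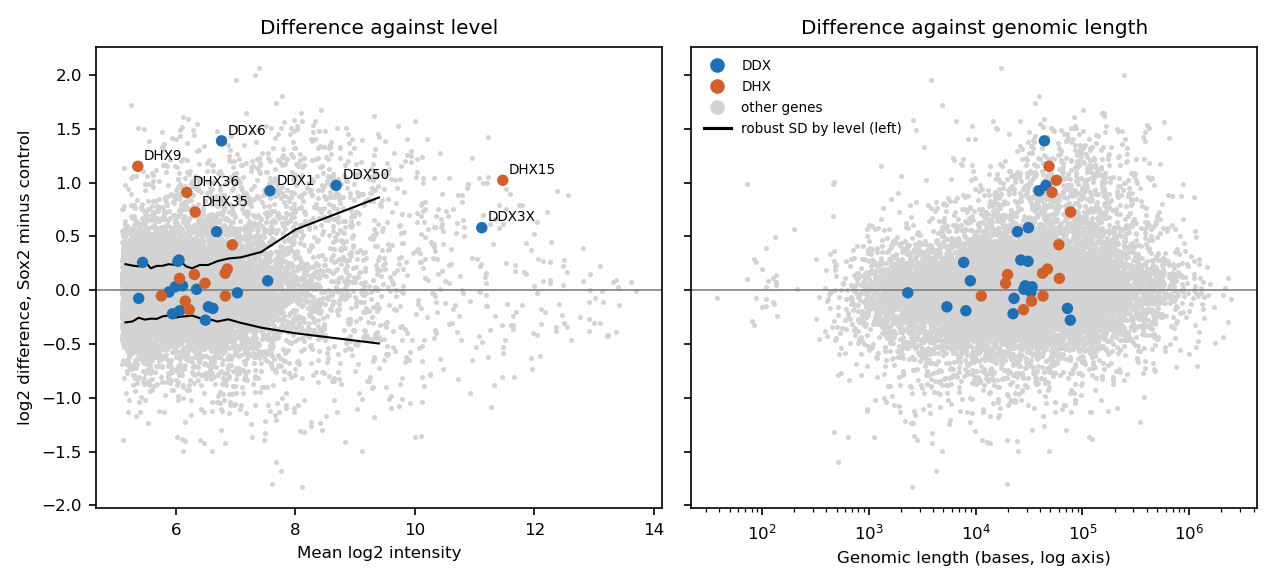
Log2 difference, Sox2-labelled array minus control-labelled array, against mean log2 intensity (left) and genomic length in bases on a log axis (right), with helicases in colour over all genes past the filter in grey. The black lines on the left lie 1 robust SD above and below the median of each level bin and widen to 0.68 for the brightest genes, where DHX15 and DDX3X lie.

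None of the 3 calls at 2-fold held under every processing tried. Averaging the probe sets of each gene left DHX15 alone at 2-fold, with 1.04, while DDX6 came to 0.55 and DHX9 to 0.45. Lowess and quantile normalization kept DDX6 and DHX9 but put DHX15 at 0.89 under either. Leaving out probe sets that may cross-hybridise, those ending in _x_at or _s_at, removed DHX9 and left DDX50 at -0.49, and DHX36 and DHX35, then read by dim probe sets alone, at -0.33 and 0.044. Scaling both arrays on the spike-ins would raise all genes by 0.75 and put 13 of 34 helicases at 2-fold, beside 19.4% of all genes, so the counts above are relative to the middle of all genes.

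RNA helicases whose symbols fall outside the pattern, such as the EIF4A proteins, and known partners of the family were taken as lists for comparison. EIF4A2 and EIF4A3 lay below the filter, and no EIF4A gene is in the counts that follow. Of 13 other RNA helicases past the filter, 1 reached 2-fold higher (7.69%, beside 2.06% of all genes) and none 2-fold lower, and the median was -0.0067. It was MTREX, the helicase that feeds RNA to the nuclear exosome, at 180 in the Sox2-labelled array and 77.7 in the control-labelled array, 2.31-fold higher. This rests on 1 probe set, the only one of 3 for MTREX past the filter. Of 26 partners past the filter, 2 were at least 2-fold higher (7.69%), 1 was lower and 23 were under 2-fold, with a median of 0.19. Of all genes, 2.06% were higher and 0.647% lower by that size.

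The partner with the largest difference was EIF4G1, the scaffold that holds EIF4A on the mRNA cap complex. It read 1108 in the Sox2-labelled array and 404 in the control-labelled array, 2.74-fold higher, and its second probe set differed by 1.84. CAPRIN1, an RNA-binding protein of stress granules, read 107 and 50.03, 2.14-fold higher, with 0.43 by the other one past the filter. ALYREF, the export adaptor that DDX39B loads onto mRNA, read 97.3 in the Sox2-labelled array and 214 in the control-labelled array, a difference of -1.14, against -0.27 by its second probe set.

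Promoters are shown for the 3 helicases called at 2-fold, since the compared condition is a DNA-binding factor of the SOX family. DDX3X is shown too, although it did not reach 1.5-fold. DDX50, DDX1, DHX36 and DHX35 had larger differences and are not shown. Each promoter is the RefSeq sequence on GRCh38.p14 from 250 bases before to 50 after the gene's start, read 5′ to 3′ on the gene's strand. Of the 50 helicases, 46 had such an entry. DDX6 lies on the minus strand at chr11:118791695-118791994, DHX15 on the minus strand at chr4:24584505-24584804, DHX9 on the plus strand at chr1:182839097-182839396 and DDX3X on the plus strand at chrX:41333058-41333357. Capitals mark the SOX core ACAATG, searched on both strands as ACAATG or CATTGT.
DDX6: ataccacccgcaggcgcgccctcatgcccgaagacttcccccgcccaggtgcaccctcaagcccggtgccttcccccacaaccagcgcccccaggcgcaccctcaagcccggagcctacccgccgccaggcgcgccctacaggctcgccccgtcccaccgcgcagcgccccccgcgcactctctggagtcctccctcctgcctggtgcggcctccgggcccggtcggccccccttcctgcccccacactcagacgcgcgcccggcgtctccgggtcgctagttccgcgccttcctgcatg
DHX15: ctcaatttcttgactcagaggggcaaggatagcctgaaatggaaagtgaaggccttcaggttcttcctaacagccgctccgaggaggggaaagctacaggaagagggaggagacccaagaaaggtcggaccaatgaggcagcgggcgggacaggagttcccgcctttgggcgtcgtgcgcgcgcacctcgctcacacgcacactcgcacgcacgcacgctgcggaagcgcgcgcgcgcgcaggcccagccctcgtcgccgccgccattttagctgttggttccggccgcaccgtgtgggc
DHX9: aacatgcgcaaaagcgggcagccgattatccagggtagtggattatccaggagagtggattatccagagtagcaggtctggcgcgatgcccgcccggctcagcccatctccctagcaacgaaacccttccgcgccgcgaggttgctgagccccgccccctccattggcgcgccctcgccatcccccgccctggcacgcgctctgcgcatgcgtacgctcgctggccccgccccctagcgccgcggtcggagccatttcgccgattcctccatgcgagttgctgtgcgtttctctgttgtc
DDX3X: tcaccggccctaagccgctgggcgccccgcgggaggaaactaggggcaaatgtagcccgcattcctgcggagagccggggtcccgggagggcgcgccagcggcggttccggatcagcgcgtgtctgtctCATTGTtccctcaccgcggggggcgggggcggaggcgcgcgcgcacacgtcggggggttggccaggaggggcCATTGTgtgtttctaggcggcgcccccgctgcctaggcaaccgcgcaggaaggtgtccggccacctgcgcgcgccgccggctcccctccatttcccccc
The DDX3X promoter held 2 matches and the other 3 held none. Over the 46 helicase promoters, 3 held a match, those of DDX3X, DDX27 and DDX41, or 6.52%, beside 11.0% of all 27305 promoters of this length and 8.10% of those of genes on the array. None of the 7 helicases at least 1.5-fold higher had one, beside 3 of the other 23 past the filter with an entry. The ETS core CCGGAAG, searched on both strands and not overlapping the SOX core's letters, was in 18 of 46 helicase promoters, or 39.1%, beside 10.7% of all promoters and 14.4% of those of genes on the array. It was in 3 of the 7 helicases at least 1.5-fold higher and in 11 of the other 23. These matches describe letters in a window and say nothing of binding in these cells.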

How the data were processed

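RNA of 2 samples, labelled Sox2 and control, was hybridised to 1 Affymetrix array each. The authors deposited 1 intensity per probe set and array on a linear scale with a lowest value of 1, and RMA is the only tool named per the submitters' processing notes. Its version and settings, and the step that made the values linear, are not given in these sources. Intensities were taken to log2 with no further scaling. Genes came from the platform annotation, where 41091 probe sets name 1 gene, 1801 several and 11721 none, beside 62 Affymetrix controls. DDX39B, DDX47 and DDX12P are named only by probe sets that also name other genes and entered no count. All helicases were accounted for, and partners were named where they differed by at least 2-fold. The members and lists were chosen with earlier results of these data known. No test was possible with 1 array a group, so genes were counted by size. The taking of differences and the quantile normalization were checked on simulated data. For the differences each simulated gene had 1 probe set, so the choice among probe sets, the technical spread and the trends were not checked. Alternatives covered the probe set, the filter, the scaling, the removal of a trend with genomic length (RefSeq, lowess span 0.3) and the fold. Spike-in scaling and the promoter motifs were chosen after seeing the data. The number of arrays limits the precision. Python 3.11.15, numpy 2.4.6, pandas 2.3.3, SciPy 1.17.1, statsmodels 0.14.6 and matplotlib 3.10.9 were used.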

Additional observations from a re-analysis of the deposited data

How the results depend on the processing

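No paired analysis was possible because each condition had 1 array. The count of helicases at least 2-fold higher, 3 as reported, was 1 with all probe sets of a gene averaged, 7 at 1.5-fold and 13 with spike-in scaling, and it was 2 or 3 under the other alternatives. No alternative gave a helicase past the size lower. The median of all helicases was 0.030 with probe sets averaged, and 0.85 with spike-in scaling, where the DDX median was 0.79, the DHX median 0.90 and the median of all genes 0.75. Otherwise these medians moved by less than the technical spread allows for their number of genes, and the DDX median stayed under the DHX median throughout. Averaging moved 13 of 50 single genes by more than 1 technical SD, leaving out probe sets that may cross-hybridise moved 3 of 39, and the scalings within the arrays moved none. Averaging lowers a count where 1 probe set stands apart. Over all genes it left 56 of 10497 at least 2-fold higher, against 281 of 13611 as reported. Quantile normalization gave 202 of 13611 and leaving out probe sets that may cross-hybridise 162 of 10402. Signal over background could not be judged, since no detection calls were used.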

Other observations

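Some probe sets name a helicase together with other genes and belong to no count above. The one that names DDX47 with APOLD1 read 33.45 in the Sox2-labelled array and 38.8 in the control-labelled array, a log2 difference of -0.21. DDX39B, which loads export factors onto mRNA, was named with a read-through gene and a snoRNA gene by 2 probe sets, which read 23.1 and 23.9, and 28.4 and 26.3. The probe set shared by DDX19A and DDX19B read 49.9 and 55.1, a difference of -0.14. DDX11 and its copy DDX12P shared one at 40.65 and 41.65.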
